A study of Homo sapiens with 30 samples.

Results

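RW mutant p53, altered in the DNA-binding domain, was compared with pGFP in H1299 cells at both times after transfection. The comparison took in all libraries labelled RW and all labelled GFP: 3 of each at 6 h and 3 of each at 24 h, which is 12 of the 30 libraries of the series. H1299 is a lung carcinoma line without p53, used here at passages 7 to 12. Every culture was transiently transfected with 1 vector, pGFP expressing GFP alone, and the p53 vectors expressing both p53 and GFP, each gene under its own TRE-tight promoter. GFP-positive cells were sorted by FACS before RNA was taken, and no group of this comparison received *O*6-benzylguanine. A further 6 libraries of cells carrying wild type p53 (3 at each time, otherwise handled alike) are used only to show how large a p53 response was in the same cells. The study describes biological triplicates, while the labels do not tie a library to a culture, so P values measure the spread between these libraries.

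p53 is a transcription factor that binds DNA as a tetramer and raises genes of cell cycle arrest, apoptosis, DNA repair and metabolism, among them *MDM2*, whose product marks p53 for degradation. Mutants altered in the domain that touches DNA have been described as having lost transcriptional activity, as acting against p53 family members by a dominant effect, or as having gained activities at genes that p53 does not control. H1299 cells allow lost and gained activity to be measured without endogenous p53. No library of this comparison held wild type and RW mutant p53 together, so dominance over wild type p53 was not measured.

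p53 response elements consist of a pair of half-sites of 10 bases, each with a core that reads CNNG, where N is A or T, after purines and before pyrimidines. The window from 2500 bases before to 2500 bases after the annotated start of each protein coding gene was searched on hg38 for a pair of half-sites with no more than 1 base between them and at most 2 of the 12 flanking bases off the consensus. The pattern covers both strands because it is its own reverse complement. Matches are shown for 5 target genes described later, as examples of the sequence pattern that p53 is known to bind. They are written 5′ to 3′ on the strand of the gene, with the cores in capitals.

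*CDKN1A*, chr6:36676449-36676468: gaaCATGtcccaaCATGttg
*BTG2*, chr1:203303642-203303661: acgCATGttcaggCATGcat
*PLK2*, chr5:58462274-58462293, minus strand: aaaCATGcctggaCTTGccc
*DDB2*, chr11:47214979-47214999: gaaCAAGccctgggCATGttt
*ZMAT3*, chr3:179070188-179070207, minus strand: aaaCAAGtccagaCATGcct

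The *PLK2*, *DDB2* and *ZMAT3* matches had no base off the consensus, while the *CDKN1A* and *BTG2* matches had 2. Such a match was found in the window of 17 of 61 genes of the p53 target lists (27.9%) and of 764 of 17779 protein coding genes (4.3%). A match is a description of the sequence and not a measured binding site.

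The 12 libraries held 32302699 to 58732541 counts on genes, with a median of 42186929, and 19276 of the genes reported here passed the filter on low counts. As checks of the cell type, *KRT8*, *KRT18* and *VIM*, which encode intermediate filaments, were high in all 12 libraries (123 to 165, 298 to 694 and 1969 to 3111 CPM, the count relative to library size after TMM scaling). The epithelial adhesion gene *EPCAM* (at most 0.345 CPM) and the lung lineage genes *NKX2-1* (at most 1.22 CPM) and *SFTPC* (0 to 2 counts) were at or near 0, as was the leukocyte gene *PTPRC* (0 or 1 count). The *KRT8* estimate between the groups was 0.042 on the log2 scale (SE 0.063). Genes of leukocytes, fibroblasts and endothelium were at most 2.03 CPM in these libraries, and among 6 of them that could be tested none passed, the smallest P of each list being those of *LYZ* (−0.13, SE 0.30), *COL1A1* (−0.30, SE 0.19) and *VWF* (−0.091, SE 0.39). Because whole populations of sorted cells were measured, fewer responding cells and less RNA per cell cannot be told apart.

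Among the 19276 genes, none was called as changed by RW mutant p53. Genes were called DEGs where the fold change reached 2 and the Benjamini-Hochberg adjusted P of edgeR's quasi-likelihood test was under 0.05, which 0 genes (0%) met over both times. No gene passed an adjusted P of 0.05 at any fold, and the smallest adjusted P was 1. An unadjusted P below 0.05 was reached by 258 genes (1.34%), and DESeq2 and limma, which also called 0 genes, put 0.98% and 1.39% of genes below it. There were likewise 0 DEGs at 6 h (218 genes with an unadjusted P below 0.05) and at 24 h (188 genes). The effect of RW mutant p53 differed between the times for none of the genes (0%), with 177 genes (0.918%) at an unadjusted P below 0.05. These fits leave out the replicate number. With it as a block, 1062 genes (5.51%) had an unadjusted P of edgeR's quasi-likelihood test below 0.05. *HBB* and *HBD* were then called over both times (smallest adjusted P 2.02e-05 by edgeR) and *C4orf48* and *CCDC85B* for the difference between the times, as described with the globin genes.

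The absence of calls was set against what wild type p53 did in the same cells. Wild type p53 raised 928 genes (4.57% of 20317 tested) and lowered 22 (0.108%) at 6 h, and raised 1865 (9.18%) and lowered 408 (2.01%) at 24 h. RW mutant p53 differed from wild type p53 at 939 genes (4.62%) at 6 h, of which 926 were lower with the mutant, and at 2292 genes (11.3%) at 24 h, of which 1911 were lower. These comparisons share their pGFP or RW mutant libraries with the one above. As a description, the median absolute log2 difference between an RW mutant and a pGFP library over 14202 genes had a median of 0.0961 at 6 h and 0.108 at 24 h, while 2 libraries of the same vector (pGFP or RW mutant) differed by 0.095 and 0.161. Pairs across vectors include libraries of the same replicate number, which varied together at 24 h, and pairs of the same vector cannot. These medians are therefore not like for like. A wild type and a pGFP library differed by 0.139 and 0.305.

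How large an effect could have gone undetected was read from the 95% interval of each gene's fold change. The interval lay within 2-fold for 18488 genes (95.9%) and within 1.5-fold for 15166 (78.7%). By a pair of one-sided tests per gene, adjusted over all genes, 18832 (97.7%) were equivalent between RW mutant p53 and pGFP to within 2-fold. The median half-width of an interval was 0.182 on the log2 scale, or 1.13-fold. These intervals, and those given for single genes below, come from fits without the replicate number. With it as a block the median half-width was 1.09-fold, and 97.5% of genes were bounded within 2-fold.

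Precision depended on the level of the gene. Under 1 CPM (5171 genes) the median half-width was 1.46-fold and 84.9% were bounded within 2-fold, between 1 and 10 CPM (4355 genes) it was 1.19-fold and 99.8%, and between 10 and 100 CPM (7212 genes) it was 1.09-fold. Of the 9750 genes over 10 CPM, 9748 were bounded within 2-fold. The 2 exceptions were the small nucleolar RNA *SNORD3A* (−0.38, 95% interval −1.07 to 0.32) and the small Cajal body RNA *SCARNA5* (0.23, −0.56 to 1.02). At 6 h alone 84.3% of genes and at 24 h alone 86.4% were bounded within 2-fold.

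**Figure D1:**
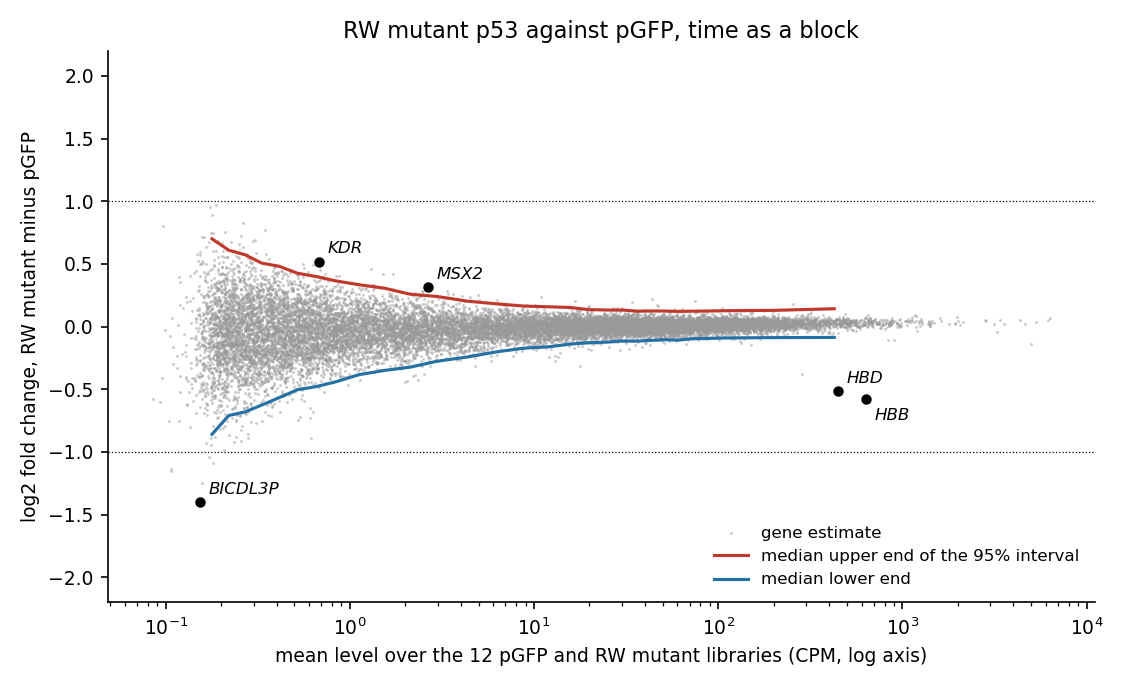
Log2 fold change of RW mutant p53 against pGFP with time as a block (vertical axis) by mean level over the 12 libraries (horizontal log axis, CPM), each grey point a gene; lines give the median upper and lower ends of the 95% interval in 30 bins of level, and dotted lines mark 2-fold. Black points mark 5 named genes, of which *HBB* and *HBD* lie at −0.58 and −0.52, away from most genes of their level.

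Residual activity was examined at 62 p53 target genes in 6 lists, of which 58 passed the filter and *SCO2* was not analysed here. None of the 58 passed the test with RW mutant p53. None had an unadjusted P below 0.05 in either direction, beside 258 (1.34%) of all genes in the same fit. With that share, a count of 0 does not set the 58 apart. Their median log2 fold change was 0.0165, beside 0.00325 over all genes tested, and their estimates ran from −0.40 (*TP53I11*) to 0.19 (*GDF15*). Of the 60 tested with wild type p53, 45 rose at 6 h and 53 at 24 h, beside 4.57% and 9.18% of all genes. None fell, and the medians were 1.69 and 1.99. *EDA2R* and *PHLDA3* passed the filter only with the wild type libraries included, and without them 43 and 51 of 58 rose. The upper end of the interval was below 1.5-fold for 57 of the 58 with RW mutant p53 and below 2-fold for all 58. Set directly against wild type p53, RW mutant p53 was lower at 44 of these 58 at 6 h and at 47 at 24 h. It was higher at none, and of all genes 4.62% and 11.3% differed in either direction. The lists were chosen with earlier results of these data known. Counts of their members that rose with wild type p53 or differed from it are therefore a description. The highest upper end was that of *TP53AIP1*, at 0.72 on the log2 scale.

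Among 8 arrest genes, *CDKN1A* (ENSG00000124762.13, chromosome 6, 36676460 to 36687337), which encodes the cyclin-dependent kinase inhibitor p21, had 42.6, 34.5 and 44.1 CPM with pGFP and 43.0, 37.8 and 46.9 CPM with RW mutant p53 at 6 h. The corresponding values at 24 h were 45.4, 51.0 and 49.9 CPM and 46.6, 51.1 and 45.4 CPM. The groups overlapped at both times. The log2 fold change was 0.017 (SE 0.068, 95% interval −0.13 to 0.16), while wild type p53 gave 2.67 (SE 0.13) at 6 h and 3.68 (SE 0.13) at 24 h.

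*BTG2* (ENSG00000159388.5, chromosome 1, 203305491 to 203309602), an antiproliferative gene, had 2.23, 2.19 and 2.27 CPM with pGFP and 2.44, 2.62 and 2.76 CPM with RW mutant p53 at 6 h, where the groups did not overlap. At 24 h they overlapped, with 2.41, 2.32 and 2.79 CPM against 2.41, 2.53 and 2.11 CPM. The 6 h difference of 0.22 (SE 0.13) did not pass the test (unadjusted P of edgeR's quasi-likelihood test 0.118), and wild type p53 raised *BTG2* to between 90.3 and 102 CPM at that time. *PLK2*, which encodes a kinase of the centrosome cycle, had the smallest P of the arrest list and of all 58 targets (log2 fold change 0.11, SE 0.059, unadjusted P 0.0838), with 46.3 to 53.3 CPM and 53 to 55.8 CPM at 6 h. Wild type p53 raised all 8 genes of the list at 6 h and 7 at 24 h, beside 4.57% and 9.18% of all genes. The median with RW mutant p53 was 0.0109.

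The 17 apoptosis genes had a median of 0.015 with RW mutant p53. Wild type p53 raised 11 at 6 h and 16 at 24 h, beside 4.57% and 9.18% of all genes. *TP53I3*, a quinone oxidoreductase gene, had 19.7, 17.9 and 18.4 CPM with pGFP and 19.2, 18.2 and 19.1 CPM with RW mutant p53 at 6 h, against 152, 152 and 169 CPM with wild type p53. The interval of its fold change was 0.941 to 1.09, and that of *FAS*, the death receptor gene, was 0.913 to 1.1. *BBC3*, which encodes the BH3-only protein PUMA, is a low gene at 0.95 to 2.44 CPM with pGFP, and its interval of 0.823 to 1.24 was wider. *TNFRSF10D*, a decoy receptor gene for TRAIL, had the smallest P of the list (0.091, SE 0.051, unadjusted P 0.09).

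*MDM2* (chromosome 12, 68808177 to 68845544), the ubiquitin ligase gene of the p53 feedback loop, had 188, 184 and 211 CPM with pGFP and 188, 190 and 205 CPM with RW mutant p53 at 6 h. At 24 h the values were 180, 188 and 173 CPM and 182, 182 and 165 CPM. The groups overlapped, and the fold change was bounded between 0.922 and 1.05. Wild type p53 brought *MDM2* to 1252 to 1376 CPM at 6 h. None of the 5 feedback genes passed the test, *CCNG1*, a cyclin gene, having the smallest P (0.063, SE 0.055, unadjusted P 0.269), and none of the 5 DNA repair genes did. The repair gene *XPC*, which encodes a damage recognition protein, was bounded between 0.944 and 1.07, and *DDB2*, of the same recognition step, had a log2 fold change of 0.063 (SE 0.055), with 26.7 to 29.1 CPM with pGFP and 27.6 to 31.0 CPM with RW mutant p53 at 6 h.

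Among 11 tested genes of metabolism and autophagy the median was 0.0245, and *SESN1*, a sestrin gene that restrains mTOR signalling, was bounded between 0.944 and 1.1. *FDXR*, which encodes a mitochondrial electron carrier reductase, had the smallest P there (0.070, SE 0.053, unadjusted P 0.2). The 12 other targets had a median of −0.00194. *ZMAT3*, an RNA-binding protein gene, had 37.3 to 43.6 CPM with pGFP and 38.6 to 44.1 CPM with RW mutant p53 at 6 h. Its log2 fold change over both times was 0.037 (SE 0.067). Wild type p53 gave 1.02 on the log2 scale (2.03-fold) at 6 h and a 3.67-fold rise at 24 h. *GDF15*, a secreted TGF-beta family ligand, had 0.286, 0.243 and 0.194 CPM with pGFP and 0.214, 0.227 and 0.218 CPM with RW mutant p53 at 6 h, and 0.838, 0.760 and 0.745 CPM against 0.991, 1.14 and 0.822 CPM at 24 h. RW mutant libraries lay within the pGFP range at 6 h and overlapped it at 24 h, where the mean was 1.26-fold higher (unadjusted P 0.12), and wild type libraries reached 32.7 to 48.7 CPM. *VDR*, the vitamin D receptor gene, had the smallest P of this list (0.11, SE 0.058, unadjusted P 0.0875).

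**Figure D2:**
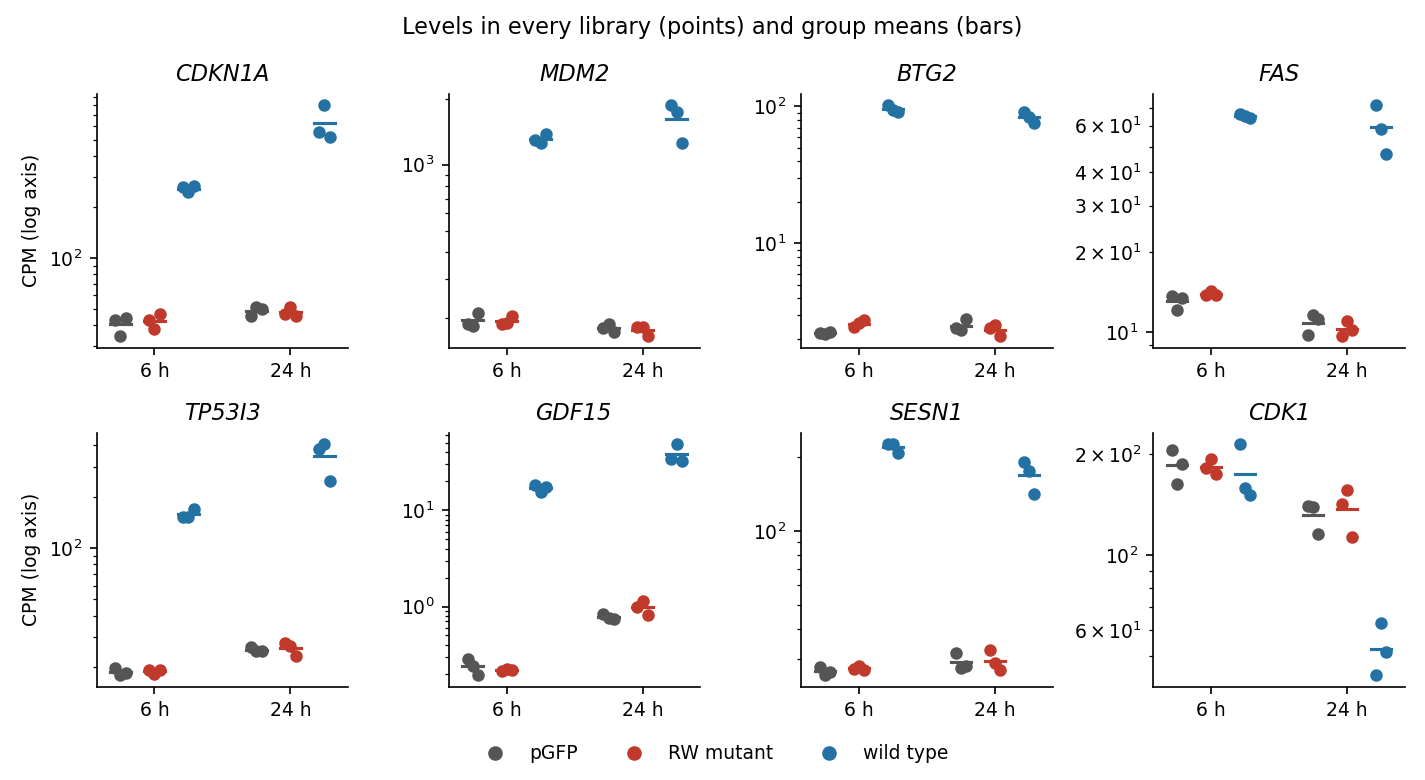
CPM (log axis) of 7 p53 targets and the cell cycle kinase gene *CDK1* in each library (points) with the group mean (bar), for pGFP, RW mutant and wild type p53 at 6 h and 24 h. At the targets RW mutant libraries lie with pGFP, as for *MDM2* at 165 to 205 CPM against 173 to 211 CPM.

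A share of the wild type rise was computed for each library: over the target genes that wild type p53 raised at that time, the median of the distance from the pGFP mean divided by the distance between the wild type and pGFP means. Over 45 genes at 6 h the RW mutant libraries stood at −0.138%, −0.878% and 0.556% and the pGFP libraries at 0.183%, −0.674% and 0.651%. Over 53 genes at 24 h they stood at 0.0707%, 0.382% and −0.219%, and the pGFP libraries at −0.37%, 0.439% and −0.057%. The means of RW mutant p53, −0.153% ± 0.717 (SD, n = 3) and 0.0779% ± 0.301 (SD, n = 3), lay inside the range of the pGFP libraries at both times, although RW mutant replicate 2 at 6 h was below the lowest of them. As a ratio of sums over the genes, the RW mutant means were 0.298% at 6 h, where the pGFP libraries ran from −0.756% to 0.49%, and 0.634% at 24 h, where they ran from −1.43% to 0.86%. Over the 43 and 51 genes that also passed the filter on the 12 libraries the means were −0.149% and 0.0752%. Wild type libraries stood between 95.9% and 103% at 6 h and between 79.5% and 116% at 24 h. The genes were chosen by the wild type libraries that also set the scale, so these shares are a description.

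**Figure D3:**
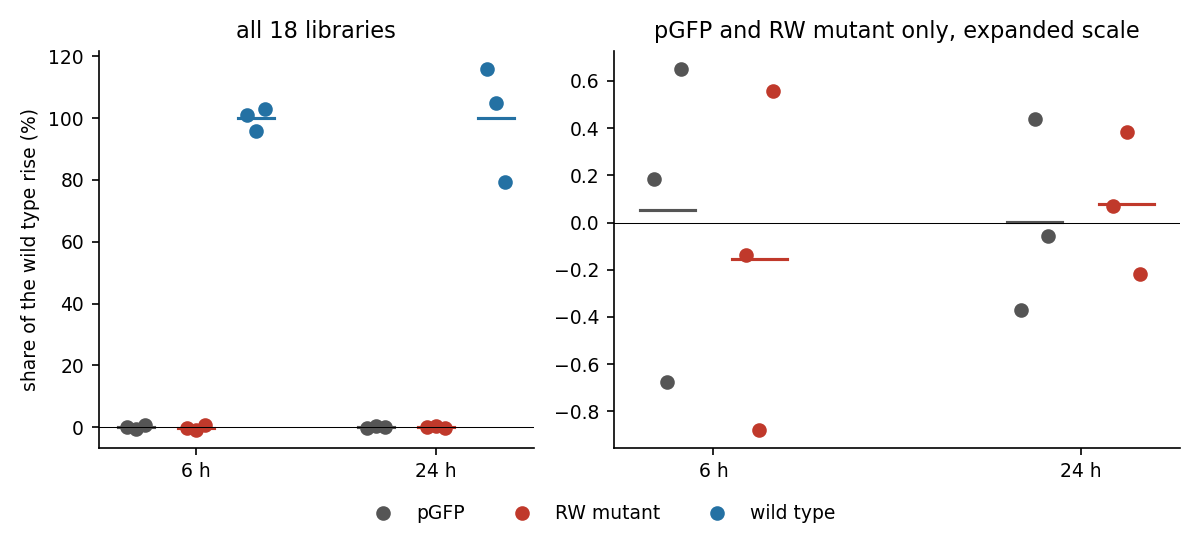
Share of the wild type rise (%) over the p53 targets that wild type p53 raised (45 at 6 h, 53 at 24 h) in each library (points) with the group mean (bar), for all 18 libraries at left and on an expanded scale for pGFP and RW mutant p53 at right. RW mutant libraries run from −0.878% to 0.556%, within 1% of 0, the pGFP libraries from −0.674% to 0.651%, and wild type libraries from 79.5% to 116%.

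Gene by gene, the upper end of the RW mutant interval at each time was set against the wild type rise at that time, leaving the error of the wild type rise aside. Over 43 genes at 6 h the median was 5.57% of the rise, with 31 genes under 10%. Over 51 genes at 24 h the median was 5.96%, with 38 genes under 10%. At 24 h the bound was 1.08% for *CDKN1A*, 0.915% for *MDM2*, 0.432% for *BTG2* and 1.03% for *TP53I3*. The bounds were weakest where the wild type rise was small or the gene low, as for *SFN* at 6 h (41.4%) and *TP53AIP1* at 24 h (53.8%).

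A pair of larger sets was examined in the same way. The study took p53 target genes from a published list of high confidence and reports those induced by wild type p53 in these libraries, a choice that is not independent of them. Of 195 such genes reported here, 178 were tested with RW mutant p53 and none passed. Their median was 0.015, and the upper end of the interval was below 1.5-fold for 171. An unadjusted P below 0.05 was reached by 4 upward and 1 downward, beside 99 and 159 of all 19276 genes. All but *EBI3*, a cytokine subunit gene named after its values were seen (−0.69), were bounded within 2-fold. Of the 764 genes with a p53 pattern near their start, which were chosen by sequence, 574 were tested with RW mutant p53 and none passed. Their median was 0.00817, and 513 were bounded within 1.5-fold. An unadjusted P below 0.05 was reached by 3 upward and 2 downward, beside 99 and 159 of all 19276 genes. Wild type p53 raised 53 of 598 such genes at 6 h and 100 at 24 h, beside 4.57% and 9.18% of all genes, and lowered 9 at 24 h, beside 2.01% of all genes.

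Cell cycle genes, which fall when p21 inhibits cyclin-dependent kinases and the DREAM repressor complex forms, were examined as the indirect arm of the response. None of 20 passed with RW mutant p53 (median −0.0172), and all 20 were bounded within 1.5-fold. Wild type p53 lowered 3 of them at 24 h, beside 2.01% of all genes, and the median of the 20 was −0.54. *CDK1*, the mitotic kinase gene, had 140, 139 and 115 CPM with pGFP and 142, 156 and 113 CPM with RW mutant p53 at 24 h, against 44, 62.8 and 51.5 CPM with wild type p53. The pGFP and RW mutant libraries overlapped and the wild type libraries lay below both. *CCNB2*, *CCNA2* and *CDC25C*, which encode mitotic cyclins and a phosphatase that activates CDK1, had estimates of −0.016, −0.00796 and −0.029. *CHEK1*, a checkpoint kinase gene, had the smallest P of the list (0.094, SE 0.039, unadjusted P 0.03), and it was higher with RW mutant p53 where wild type p53 gave −0.55 at 24 h.

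Gained activity was looked for at genes that have been proposed as responding to mutant p53. Of 94 such genes in 6 lists, 87 were tested and none passed. None had an unadjusted P below 0.05, beside 1.34% of all genes, so that a count of 0 does not set them apart. Of the 87, 86 were bounded within 2-fold. The exception was the chemokine gene *CCL5*, with an upper end of 1.02 on the log2 scale. The median of the 87 was 0.0185.

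Of the 20 sterol synthesis genes all were bounded within 1.5-fold, among them *HMGCS1* (0.025, SE 0.061) and *SQLE* (0.010, SE 0.046). *NSDHL*, of the same pathway, had the smallest P of that list (0.054, unadjusted P 0.228). The 15 genes of growth, survival and drug export had a median of 0.0259. *MYC* had 23.1, 58.6 and 58.6 CPM with pGFP and 26.2, 63.7 and 59.3 CPM with RW mutant p53 at 24 h, so that replicate 1 was low with both vectors, and its interval was −0.44 to 0.50. The growth factor receptor gene *EGFR* had an estimate of −0.000709 (SE 0.066), the drug exporter gene *ABCB1* 0.026 (SE 0.068), the telomerase gene *TERT* 0.038 (SE 0.13) and the angiogenic factor gene *VEGFA* 0.00826 (SE 0.051). *FOS*, an AP-1 subunit gene, had the smallest P of that list (−0.13, SE 0.095, unadjusted P 0.191), with 87.4, 104 and 83.7 CPM against 71.8, 64.1 and 76.0 CPM at 24 h, where the groups did not overlap. At that time alone the estimate was −0.38 (unadjusted P 0.00145), which did not pass over all genes.

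The 31 proteasome subunit genes were all bounded within 1.5-fold, with a median of 0.0301. Estimates were above 0 for 28 of them, beside 10050 of all 19276 genes, including *PSMA1* (0.040, SE 0.058) and *PSMC1* (0.036, SE 0.045). The count is a description, as genes of a list measured in the same libraries are not independent. *PSMA6*, at −0.23 (SE 0.12, unadjusted P 0.0796), had the smallest P. The 3 chromatin genes *KMT2A*, *KMT2D* and *KAT6A*, which encode methyltransferases and an acetyltransferase of histones, had estimates of −0.098, −0.060 and 0.00592. Of 15 invasion genes 12 were tested, with a median of 0.00387, and *ZEB1*, a repressor of epithelial genes, was at −0.0013 (SE 0.057). *MMP13*, a collagenase gene, had the smallest P there (−0.23, SE 0.16, unadjusted P 0.158).

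Of the 6 proposed lists the inflammatory genes had the widest bounds, with a median upper end of 1.43-fold. Of 10, 6 were tested, and *CXCL1*, a neutrophil chemokine gene, had an interval of −0.66 to 0.47 at under 1 CPM. *CCL2*, a monocyte chemokine gene, had the smallest P (0.19, SE 0.30, unadjusted P 0.535). *IL6* had at most 1 count and *CXCL8* at most 2 counts in any of the 12 libraries, and the adhesion gene *CDH1* at most 3, so that a fall of these genes was not detectable at this depth, and no RW mutant library held more than 2 counts of any of them.

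p63 and p73 are the p53 family members on which a dominant effect of mutant p53 has been described. *TP63* had 0 to 9 counts in each of the 12 libraries and was not tested. *TP73* was measured at 3.33, 3.45 and 3.81 CPM with pGFP and 3.46, 3.05 and 3.22 CPM with RW mutant p53 at 6 h, and at 8.38, 7.92 and 6.82 CPM against 9.26, 8.92 and 6.66 CPM at 24 h. The groups overlapped at both times (−0.00328, SE 0.093). Of 15 genes in the list of p63, p73 and their targets 11 were tested and none passed, with a median of −0.00328. The Notch ligand gene *JAG1* was at 0.038 (SE 0.085) and the microRNA processing gene *DICER1* at 0.017 (SE 0.039), while *FGFR2*, a growth factor receptor gene at 0.0504 to 0.466 CPM, had the smallest P (−0.38, SE 0.33, unadjusted P 0.258). *KRT5* and *KRT14* were not analysed here.

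Genes that respond to protein load were examined next. None of 9 chaperone genes passed (median −0.014), *HSPA1A* being at −0.018 (SE 0.062) and *HSP90AA1* at 0.065 (SE 0.078). Of 7 genes of the unfolded protein and ATF4 responses none passed (median 0.0516), *HSPA5*, the endoplasmic reticulum chaperone BiP, being at 0.10 (SE 0.12) and *DDIT3* at 0.023 (SE 0.10).

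All 8 tested interferon-stimulated genes had estimates above 0, beside 10050 of all 19276 genes. They ran from 0.12 (*ISG15*) to 0.33 (*MX1*), with a median of 0.169, the highest of any list. None passed the test over all genes. *IFIT2*, an antiviral gene, had 117, 109 and 112 CPM with pGFP and 119, 118 and 125 CPM with RW mutant p53 at 6 h, where the groups did not overlap. At 24 h it had 26.7, 24.7 and 36.5 CPM and 40.5, 31.8 and 37.8 CPM, which overlapped (log2 fold change over both times 0.20, SE 0.086, unadjusted P 0.0328). *IFIT1*, of the same family, had 28.4, 21.9 and 33.9 CPM with pGFP and 49.6, 25.6 and 29.4 CPM with RW mutant p53 at 24 h, so that replicate 1 was the high library. *MX1* had 2.30, 1.06 and 1.75 CPM against 4.78, 1.28 and 1.15 CPM at that time, again with replicate 1 high. At 24 h the list's median was 0.25, and at 6 h 0.0692. With wild type p53, which shares the pGFP libraries, the median of 9 tested members was 0.222 at 6 h and 0.624 at 24 h. Of the 9, 2 rose at 24 h, beside 9.18% of all genes.

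Outside the lists, the smallest P values on the upper side were those of *MSX2*, a homeobox gene (0.32, SE 0.088, unadjusted P 0.00269), *KDR*, the VEGF receptor gene (0.52, SE 0.16, unadjusted P 0.00526), the ribosomal protein pseudogene *RPL12P12*, whose reads may belong to its parent gene (0.97, SE 0.31), and the unnamed genes ENSG00000257181 (0.69, SE 0.22) and ENSG00000266184 (0.89, SE 0.29). *MSX2* had 2.39, 2.12 and 2.22 CPM with pGFP and 2.84, 3.05 and 2.78 CPM with RW mutant p53 at 6 h, and 2.62, 2.37 and 2.42 CPM against 2.91, 2.75 and 3.31 CPM at 24 h. Its groups did not overlap at either time, which is a description, since the gene was chosen by its small P in these libraries. It did not pass the adjusted test. *KDR* was under 1 CPM in all 12 libraries.

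On the lower side the smallest P values were those of the pseudogene *BICDL3P* (−1.40, SE 0.35, unadjusted P 0.000896), *C13orf46* (−0.65, SE 0.18), ENSG00000272183 (−0.99, SE 0.28), *HBB* (−0.58, SE 0.16, unadjusted P 0.00311) and *BCL2L15*, a BCL2 family gene (−0.89, SE 0.26). All but *HBB* were below 1 CPM in these libraries. In all, 6 genes had an estimate of at least 2-fold in either direction, and 99.3% of genes an estimate within 1.5-fold.

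The globin genes stood apart among abundant genes. *HBB* (ENSG00000244734.3, chromosome 11, 5225464 to 5229395), the beta-globin gene of red blood cells, had 548, 554 and 604 CPM with pGFP and 343, 372 and 440 CPM with RW mutant p53 at 6 h. At 24 h the values were 1217, 715 and 928 CPM and 868, 357 and 687 CPM. The groups did not overlap at 6 h but did at 24 h, where each RW mutant library was nonetheless below the pGFP library of the same replicate number. *HBD* (chromosome 11, 5232678 to 5243657), the neighbouring delta-globin gene, which lay outside the rule for naming genes and was added after its values were seen, had 379, 370 and 389 CPM against 247, 254 and 318 CPM at 6 h. At 24 h it had 817, 515 and 698 CPM against 652, 279 and 453 CPM.

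The ratio of RW mutant p53 to pGFP within a replicate number was 0.499 to 0.74 for *HBB* and 0.542 to 0.818 for *HBD*, below 1 in 6 of 6 pairs for both. Both genes were named for their values in these libraries, so this count is a description. Libraries of the same number at 24 h varied together (correlations of residuals between 0.49 and 0.82, beside −0.7 to 0.44 for different numbers). At 6 h the pairing was weaker, with 0.089 to 0.48 for the same number and −0.43 to 0.27 for different numbers. RW mutant replicate 2 at 6 h correlated at 0.27 with pGFP replicate 1 and at 0.089 with pGFP replicate 2. Residuals were taken from the mean of each group, so the values for the same number and for different numbers are not independent. The comparison was repeated with time and replicate number as a block. It then called 2 genes at any fold (0.0104%), *HBB* (−0.61, SE 0.054, adjusted P of edgeR's quasi-likelihood test 2.0e-05) and *HBD* (−0.55, SE 0.055, adjusted P 6.9e-05). Over the 10 alternative fits that kept all 12 libraries the adjusted P of *HBB* ran from 2.0e-05 to 1, with 3 fits calling it, and leaving out any library without the block gave 0.891 to 1. With the block 1062 genes (5.51%) had an unadjusted P below 0.05, and the count of DEGs stayed at 0.

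Lower globin levels were also measured with the other p53 vectors. On the scaling of all 30 libraries the mean level of *HBB* at 6 h was 562 CPM with pGFP, 457 with wild type p53, 381 with RW mutant p53, and 236 and 328 with the *O*6-meG p53 vector without and with *O*6-benzylguanine. At 24 h these means were 941, 753, 629, 529 and 528 CPM, so that the mean of every p53 vector lay below that of pGFP and RW mutant p53 was not the lowest. The titles of 2 *O*6-meG libraries at 6 h name both of those groups. The wild type libraries had 423, 460 and 501 CPM of *HBB* at 6 h and 1017, 404 and 873 CPM at 24 h, above the RW mutant and below the pGFP library of the same number in 6 of 6 cases. In a block fit of the 18 libraries *HBB* was lower with wild type p53 than with pGFP (−0.35, SE 0.068, adjusted P of edgeR's quasi-likelihood test 0.000714) and lower with RW mutant than with wild type p53 (−0.26, SE 0.068, adjusted P 0.00611). For *HBD* these values were −0.39 (adjusted P 0.000107) and −0.16 (adjusted P 0.0509). Both comparisons with pGFP use the same pGFP libraries. Calls with wild type p53 were common in the fit without the block. Against pGFP, 2400 of 20317 genes at 6 h and 7723 at 24 h had an adjusted P under 0.05 by edgeR's quasi-likelihood test. RW mutant against wild type p53 gave 2321 and 7749 such genes.

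Other globin genes were low: *HBE1* had 0.377 to 0.862 CPM over the 12 libraries, and *HBG1*, *HBG2* and *HBA1* at most 0.14 CPM. *HBB* and *HBD* have closely similar coding sequences, so reads may be split between them by the counting, and counts per gene do not show where in a gene the reads fell. The sequence of the vectors was not used here, so whether these counts came from the globin genes of the cells or from sequence on the vectors was not tested, nor was what lay behind the difference.

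**Figure D4:**
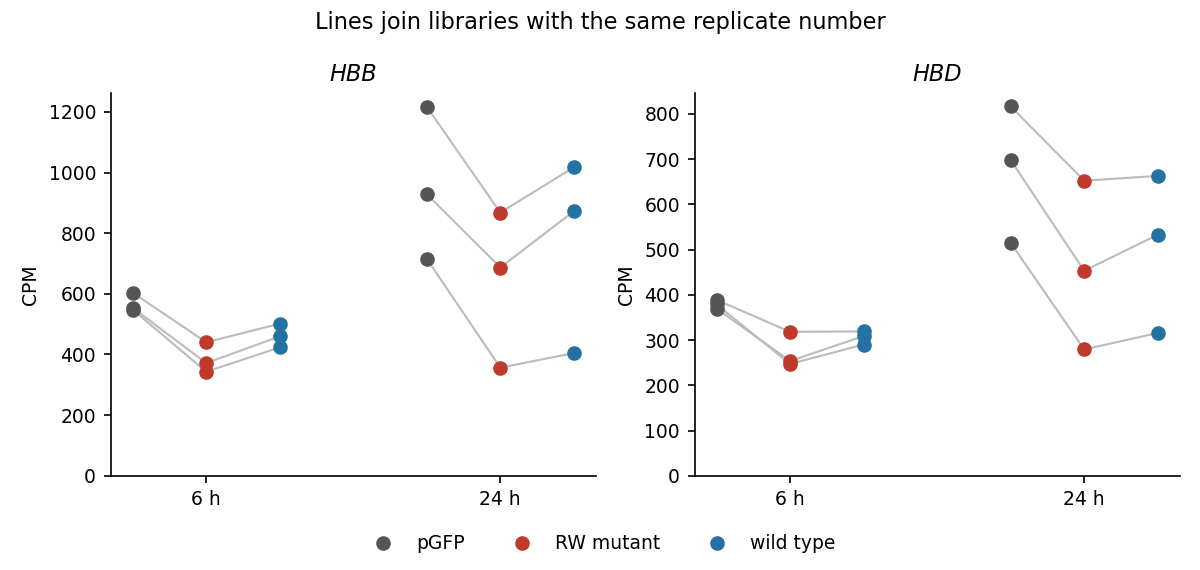
CPM of *HBB* and *HBD* in each pGFP, RW mutant and wild type library at 6 h and 24 h, with lines joining libraries of the same replicate number. Every line falls from pGFP to RW mutant p53, with *HBB* ratios of 0.499 to 0.74.

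The difference between the times was also called for 2 genes with the block, *C4orf48* (0.59 higher at 24 h than at 6 h on the log2 scale, SE 0.085) and *CCDC85B* (0.57, SE 0.079), both at an adjusted P of 0.0397 by edgeR's quasi-likelihood test. Without the block their adjusted P was 1. Neither was called at 6 h or at 24 h itself, where *C4orf48* was at −0.29 and 0.30 and *CCDC85B* at −0.26 and 0.32. Both were named after their values were seen.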

How the data were processed

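Gene counts were deposited by the authors as raw read counts, without normalization: single-read, ribosome-depleted total RNA libraries (TruSeq Stranded) were aligned to hg38 with STAR 2.5.3a and counted on GENCODE v27 with featureCounts of Subread 1.5.2. Whether counting used strand is not given in the sources used here, so genes overlapping on opposite strands are uncertain. A normalized table was not used here. For the 12 libraries, edgeR 4.0.16 was used under R 4.3.3: filterByExpr by group, TMM, and the quasi-likelihood test with time and vector as terms and Benjamini-Hochberg adjustment. Intervals (95%) came from the estimate, its standard error and the t quantile. Times were compared by a group-means fit, and wild type p53 entered by a fit of 18 libraries, whose TMM scaling also gave the CPM printed.

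Named genes were genes at an adjusted P below 0.05, the 5 smallest P on each side, a core of each list, and the smallest P of each list. Members and lists were chosen with earlier results of these data known. Symbols and coordinates were taken from GENCODE v44 on hg38 and the gene name table. The fit with time and vector was also run on simulated counts. These had independent libraries and no effect of time, so they do not cover paired libraries or the replicate block. No library duplicated another of its group (chi-square per degree of freedom 7.58 to 37.7 over 12 pairs). Same-numbered RW mutant and pGFP libraries correlated at 0.49 to 0.82 at 24 h, where all 3 exceeded 0.1 and the numbers were taken to pair the libraries, and at 0.089 to 0.48 at 6 h, where 2 of 3 did. Libraries of different number correlated at −0.7 to 0.44 at 24 h and at −0.43 to 0.27 at 6 h. These values are not independent of those for the same number, because group means were first taken from each gene. Alternatives were DESeq2 1.42.0, limma 3.58.1 (voom), other filters and library sets, the replicate block, and each library left out. Protein measurements were not analysed here. For 1 gene tested no result is reported here, and counts of genes leave it out, although it stayed in the fits and in the adjustment of P values.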

Additional observations from a re-analysis of the deposited data

How the results depend on the processing

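The count of 0 DEGs for RW mutant p53 over both times, at 6 h and at 24 h was the same in all 10 alternative fits and with each of the 12 libraries left out. The number of genes called at any fold was 2 with the replicate block, 2 with the block at 24 h only (an alternative chosen after seeing the data) and 2 without a filter on low counts, these being *HBB* and *HBD* each time, and 0 elsewhere. Without a filter, which admits genes with hardly any counts, 51.7% of genes were bounded within 2-fold, and with a library left out 92% to 94.3%. The interaction gave 1 DEG without a filter, *MT-ND4* (−1, adjusted P 0.000466 by edgeR's quasi-likelihood test, against 1 with the filter). In that fit *MT-ND4* was also called at 6 h, upward and under 2-fold (0.607, adjusted P 0.00913 by the same test). At 24 h it was at −0.398 and was not called. A minimum of 10 counts in every library admits no gene silent without p53 and drops other low genes too. It left 463 and 1250 DEGs for wild type p53 at 6 h and 24 h and 485 and 1254 for RW mutant against wild type p53. With single libraries left out these 4 counts ran from 799 to 978, 2068 to 2557, 784 to 974 and 1993 to 2532. The residual share of RW mutant p53 at 24 h was 0.634% as a ratio of sums, and −0.0817% to 0.395% over the libraries left out, the highest without pGFP replicate 2 at 24 h. At 6 h it was −0.149% to 0.298% under its other alternatives, over the study's induced genes 0.157%, and −0.481% to 0.48% with a library left out. The median of the p53 targets ran from 0.0142 to 0.0229, and from 0.004 to 0.0327 with a library left out. Of 1440 alternative values of 66 named genes, 6 became called, all of *HBB* or *HBD*, and no called value changed its direction. With the replicate block, *HBB* was also called at 6 h alone and both globins at 24 h alone. Fitting 24 h by itself with pairs added *MT-ND4* (−0.41, adjusted P 0.0015 by edgeR), and besides these and the interaction calls the block changed no call for RW mutant p53. Depth limits the bounds on genes under 1 CPM.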
